A study of Mus musculus with 59 samples.

Results

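Hindbrain-only islands were regions of the mouse genome that carried an H3K27me3 island in each of 3 hindbrain neurosphere libraries and in none of 3 forebrain neurosphere libraries, all 6 from cells that express the H3.3 K27M mutant. An island is a stretch of genome that the authors' peak caller marked as enriched in chromatin immunoprecipitation with sequencing (ChIP-seq). The autosomal islands of the 6 lists were merged wherever they shared 1 base, which gave 9269 regions, and 739 of these were hindbrain-only. The calls of these 6 libraries chose the members, so members were selected on island calls in the forebrain and hindbrain K27M lists, and every forebrain value below describes that choice without a test.

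H3K27me3, trimethylation of lysine 27 on histone H3, is placed by Polycomb repressive complex 2 (PRC2) and marks silenced developmental genes. H3K4me3 marks promoters, H3K27ac marks active promoters and enhancers, and in precursor cells H3K4me3 and H3K27me3 often occur together at poised promoters. The K27M mutation of histone H3.3, which is typical of diffuse intrinsic pontine glioma, inhibits PRC2 and lowers H3K27me3 over most of the genome while some sites keep it.

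The neurospheres, cultures in which neural precursors grow as floating balls, were made from e15.5 embryonic forebrain or hindbrain under neural precursor conditions. Their genotype was Nestin-cre with 1 H3f3a allele changed to a loxP-stop-loxP (LSL) K27M-Tag cassette, or to WT-Tag in controls, so that cre acts in cells of the Nestin lineage. Both the forebrain cultures NSF-A to NSF-C and the hindbrain cultures NSH-A to NSH-C carried K27M-Tag, and all 6 were female. The WT-Tag hindbrain cultures were NSH-D and NSH-E, female, and NSH-F, male. No WT-Tag forebrain H3K27me3 library was analysed here. Brainstem tumours carried Nestin-creERT2, H3f3a LSL-K27M-Tag/+ or LSL-WT-Tag/+, LSL-PDGFRαV544ins and Trp53 flox/flox, so K27M and WT tumours shared the PDGFRα and Trp53 alleles. The 6 K27M tumours, BT-1 to BT-6, were 4 male and 2 female, and the 5 WT tumours, BT-7 to BT-11, were 1 male and 4 female. H3K27me3 and H3K27ac were profiled in all 11 tumours, and H3K4me3 in 2 K27M tumours (BT-2 and BT-6) and 3 WT tumours (BT-7, BT-9 and BT-10). The labels do not say that libraries of a group came from separate animals, so a p-value here measures only how far the libraries differ, which may be technical. In bulk tumour tissue, fewer marked cells and less mark per cell cannot be told apart.

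The lists differed in length. The forebrain K27M lists held 4860 to 5302 autosomal islands with 3775395 to 4671583 reads inside them, the hindbrain K27M lists 6020 to 7614 islands with 4376553 to 5321143 reads, the WT hindbrain lists 16008 to 19476 islands, and the tumour lists 10716 to 42642. The lists give no total depth and no reads outside islands, so where no island was called the count is unknown, and signal below the caller's threshold may be there. Positions are of the mm9 build and counted from 1. No gene annotation of that build was at hand, so regions are named by position alone.

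Hindbrain-only regions made up 7.97% of the 9269 merged regions, and forebrain-only regions, defined the other way round, were 299 or 3.23%. A further 2584 regions held an island in all 6 lists. Just outside the rule lay 327 regions with all 3 hindbrain lists and 1 forebrain list, 381 with all 3 hindbrain and 2 forebrain lists, and 740 with 2 hindbrain lists and no forebrain list. The counts depended on how the lists were matched. When every list was cut to its 4860 islands of highest reads per kb, 407 regions were hindbrain-only and 408 forebrain-only, and 385 of the 739 members (52.1%) overlapped one of the 407. With the 4860 islands of most reads the counts were 461 and 412. With only islands of at least 1.5 times the lowest decile of reads per kb they were 376 and 148, a ratio of 2.54 against 2.47 with the full lists. Leaving out a hindbrain list loosens the rule, and gave 845 hindbrain-only regions without NSH-A, 1171 without NSH-B and 1057 without NSH-C.

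Most hindbrain-only regions were short and lightly marked beside regions of all 6 lists, and near the medians of all merged regions. Their median width was 5.40 kb, with quartiles of 3.80 and 8.20 kb and a range from 1.20 to 49.0 kb. Under 5 kb lay 319 members, and 17 exceeded 20 kb. The median was 7.4 kb in forebrain-only regions, 11 kb in regions of all 6 lists and 5.00 kb over all merged regions. Members held a median of 26.4 reads per kb of island in the hindbrain K27M libraries, against 45.0 in regions of all 6 lists. Density is given below as island reads per kb of island and per 1000000 autosomal island reads of the library, averaged over libraries. It had a median of 5.47 in members, with quartiles of 4.83 and 6.67, against 9.31 in the regions of all 6 lists and 5.31 over all merged regions with a hindbrain K27M island. The neighbouring classes had close values, with medians of 5.69 for 3 hindbrain and 1 forebrain list, 6.07 for 3 and 2, and 4.65 for 2 hindbrain lists and none in forebrain.

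The weaker members lay near the level at which forebrain islands were called. In 384 members all 3 hindbrain libraries exceeded a density of 4.69, the highest 10th percentile among the islands of the 3 forebrain lists. In 96 members all 3 exceeded 6.68, the highest of the forebrain medians. The 3 hindbrain libraries differed little at most members, with a median ratio of the highest to the lowest density of 1.30. The ratio was over 2 at 30 members and reached 3.64. The highest value fell in NSH-A at 190 members, in NSH-B at 235 and in NSH-C at 314.

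**Figure D1:**
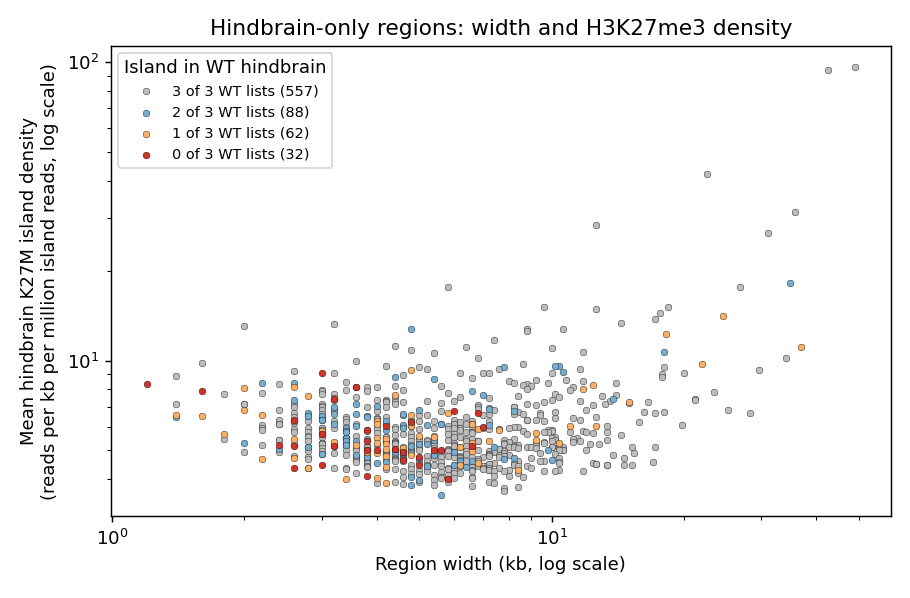
Region width (kb) against mean H3K27me3 island density in the 3 hindbrain K27M libraries (reads per kb per 1000000 island reads), both on log scales, with 1 point for each of the 739 members and colours for the number of WT hindbrain lists with an island. Most points lie under 10 kb and near the median density of 5.47, and 2 members of 42.6 and 49.0 kb stand above 90.

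A few long, strong domains stood apart from this mass of short regions. The densest member was chr12:50470201-50519200, 49.0 kb long, at densities of 94.1 in NSH-A, 100.5 in NSH-B and 93.9 in NSH-C. The second was chr19:59509201-59551800, 42.6 kb long, at 92.5, 105.1 and 85.8. These 2 were also the widest members, and the next densest reached a mean of 42.1, so a gap separates them from all others. Together they held 23.5%, 25.2% and 21.0% of the members' island reads in NSH-A, NSH-B and NSH-C. In the forebrain lists no island touched them. The nearest forebrain island lay 1688 kb from the chr12 domain and 35.6 kb from the chr19 domain.

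The third and the fourth densest members were close neighbours on chromosome 2, 178 kb apart. The region chr2:115673801-115696400 had densities of 37.1, 51.5 and 37.9 in NSH-A, NSH-B and NSH-C, and chr2:115874401-115910200, 35.8 kb long, had 22.6, 40.5 and 31.2. NSH-B was the highest of the 3 libraries at both. Next came chr1:165236201-165248800 with 31.7, 30.2 and 23.6. The region chr14:122763801-122794800 had 34.6, 32.8 and 13.2, so that NSH-C was low there. At chr5:13501801-13536600, 34.8 kb long, the order was turned, with 9.52 in NSH-A, 14.3 in NSH-B and 30.8 in NSH-C. The adjoining chr5:13538201-13575200, the third widest member at 37.0 kb, showed the same order at 5.67, 8.19 and 19.3. The chr5 pair lay 1.60 kb apart, and NSH-C was the highest library at both.

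The other members of the 12 densest were chr1:154885801-154912600 (mean 17.7 ± 9.01, SD, n = 3), chr11:77742201-77748000 (17.6 ± 5.73, SD, n = 3), chr14:118622001-118640400 (15.2 ± 5.37, SD, n = 3), chr19:60217401-60227000 (15.1 ± 3.41, SD, n = 3) and chr18:15218001-15230600 (14.9 ± 3.97, SD, n = 3). Among the 12, neighbours in this order had overlapping values over the hindbrain K27M libraries at every step except from the second rank to the third. All 12 still overlapped a hindbrain-only region under each way of merging or matching the lists that was tried. Of all 739 members 158 to 674 did so in these settings. Omission of a library loosens the rule, so that members can hardly drop out. All 12 were kept there, as were 735 to 739 of all members.

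In WT hindbrain cells most members were marked too. An island lay on 557 members in all 3 WT lists (75.4%), against 76.1% of all merged regions, on 88 in 2 lists, on 62 in 1 and on 32 in none (4.33%, against 7.45% of all regions). The share in all 3 WT lists was 98.8% for regions of all 6 K27M lists and 46.8% (140 of 299) for forebrain-only regions. By list, 667 members (90.3%) were called in NSH-D, 616 (83.4%) in NSH-E and 626 (84.7%) in NSH-F, against 83.0%, 83.9% and 88.0% of all regions. Calls in all WT lists were found at 61.1% of the 72 members under 3 kb and at 89.6% of the 154 between 8 and 15 kb, and the same bands of all regions had 54.2% and 92.3%. Islands that touched members in WT cells often extended beyond them. Their median lengths were 9 kb in NSH-D, 8.20 kb in NSH-E and 10.6 kb in NSH-F, and 84.7% to 86.9% of the members called in a WT list had an island that reached past the member's edge.

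The 32 members without a WT hindbrain island were short, from 1.20 to 7 kb, and of modest density, with a median of 5.16 and a highest value of 9.07. A tumour island lay on 17 of them (53.1%), an H3K27ac peak of any tumour on 14 (43.8%) and an H3K4me3 peak on 8 (25%). Over all merged regions these shares were 86.6%, 37.2% and 38.5%. All merged regions without a WT island were not described apart. The densest was chr11:98822001-98825000, at 11.8, 10.1 and 5.32 in NSH-A, NSH-B and NSH-C, from 188, 133 and 56 reads. It held an island in 4 K27M and 2 WT tumours, H3K27ac in all 11 tumours and H3K4me3 in all 5. The regions chr3:8664801-8666400 and chr10:79761001-79764200 also carried H3K27ac in all 11 tumours and H3K4me3 in all 5. By contrast chr6:65081201-65082400 and chr13:111133001-111136600 had no island and no peak of these marks in any tumour. With 34 to 48 reads per library, the chr6 region rests on few reads.

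At most of the 12 densest members, density was higher in K27M than in WT hindbrain cells. These 12 were ranked by the K27M density itself, which favours this direction. Regions in general also went this way. Median density in regions of all 6 lists was 9.31 in K27M and 7.01 in WT. Over all merged regions with an island of the genotype it was 5.31 and 4.69. The direction is therefore not particular to these members. This contrast shares with the rule the K27M libraries that chose the members, so its values are a description and no p-value is given for it. The chr12 domain had 35.3, 37.1 and 31.3 in NSH-D, NSH-E and NSH-F. Density is relative to each library's own island reads and does not give the total amount of mark. The chr19 domain had 26.2, 30.7 and 18.5. No WT library reached the lowest K27M library at either domain. At chr14:122763801-122794800 the WT values were 5.43, 6.40 and 3.22, again below all 3 K27M values. An exception among the 12 was chr1:154885801-154912600, where WT had 12.9, 14.3 and 15.4 and K27M 10.6, 14.7 and 27.8. At chr11:77742201-77748000 the WT values were 7.57, 12.2 and 4.74, a mean of 8.17, and the K27M values 12.7, 16.3 and 23.9, a mean of 17.6, with only the highest WT library close to the lowest K27M library. Density is per kb of called island, and the called length there was 2400, 3000 and 5800 bases in K27M. In WT it was 5800, 5600 and 5800 bases, so density and reads differ in what they show at this member.

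**Figure D2:**
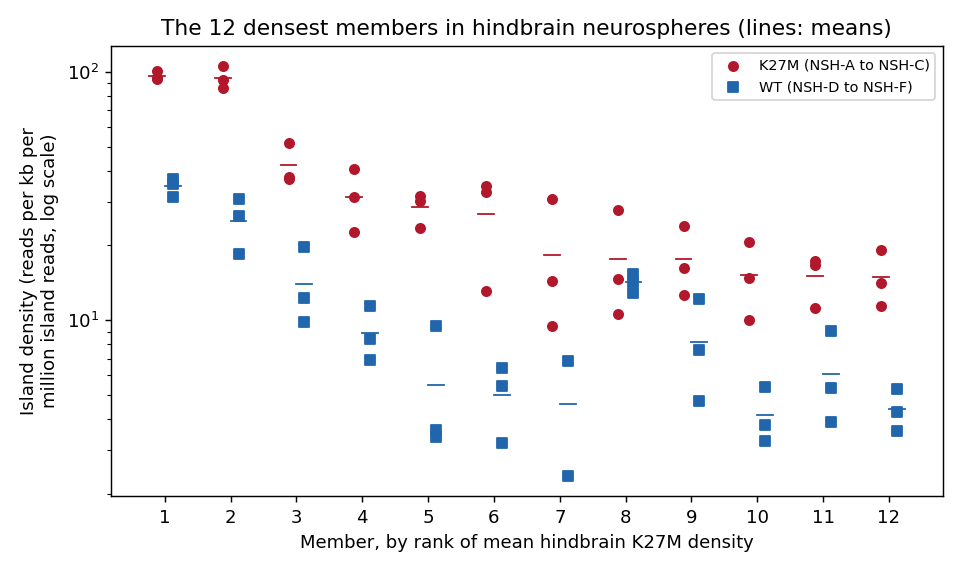
Island density (reads per kb per 1000000 island reads, log scale) of the 12 densest members in each K27M hindbrain library (circles) and each WT hindbrain library with an island (squares), with lines at the means. The WT squares lie below the K27M circles at 11 of the 12 ranks, and the groups overlap at rank 8. The ranks were set by the K27M density, and median density was higher in K27M over all merged regions too. Density is per kb of called island, and at rank 9 NSH-A and NSH-B had shorter called islands than the WT libraries.

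Island reads inside the regions, without division by called length, were also set on a scale relative to the regions marked in all 6 hindbrain libraries. This scale is reads per 1000000 in those regions (CPM) with TMM composition factors. On it the groups overlapped at chr11:77742201-77748000, with 41.4, 72.4 and 180.7 CPM in K27M and 59.9, 97.8 and 45.2 CPM in WT. Of 557 members in that table, the edgeR quasi-likelihood fit over all 3767 regions put 59 higher and 83 lower in K27M at its threshold. Nothing is read from these member counts or from the folds and standard errors below, since the same K27M libraries chose the members. Of all regions in the test 21.7% were higher and 22.1% lower. The median log2 fold was -0.17 in members and -0.10 over all regions. Directions depended on the scaling, since without composition factors 16 members were higher and 365 lower and the median over all regions was -0.93. Of all 3767 regions 287 were then higher and 2528 lower. Single libraries also moved the counts: 38 members were higher without NSH-F, and 44, 49 and 46 were lower without NSH-B, NSH-E and NSH-F. Over all regions tested, 651 of 3803 were higher without NSH-F. Lower were 650 of 4300 without NSH-B, 588 of 3815 without NSH-E and 582 of 3803 without NSH-F.

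The member with the largest log2 fold toward K27M was chr6:31539001-31556800, at 211.9, 196.8 and 184.3 CPM in NSH-A to NSH-C and 30.2, 5.37 and 13.3 CPM in NSH-D to NSH-F, a log2 fold of 3.61 (SE 0.53). Next was chr14:122763801-122794800 with 1457, 1458 and 456.5 CPM against 151.2, 249.3 and 104.9, a log2 fold of 2.74 (SE 0.50). The region 2.20 kb to its right, chr14:122797001-122814200, had a log2 fold of 2.69, so these values come from 1 stretch of chromosome 14. Log2 folds of 2.53 and 2.45 were found at chr1:165236201-165248800 and chr18:15218001-15230600. In each of these 5 members the lowest K27M library was above the highest WT library. They were chosen by their log2 fold, which favours groups that do not overlap, so nothing is read from this. The 5 kept their direction without composition factors, with log2 folds of 1.64 to 2.76.

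Members at the other end were thinly marked in K27M cells. At chr11:83677001-83681800 the values were 19.4, 13.5 and 13.6 CPM in K27M and 117.2, 129.4 and 143.8 CPM in WT, a log2 fold of -3.06 (SE 0.21). Log2 folds of -2.32, -2.28, -2.20 and -2.13 followed at chr7:146795401-146800800, chr6:99828401-99833000, chr1:89066401-89070800 and chr5:28803601-28809400. At the last the groups overlapped, with 152.7, 32.7 and 152.8 CPM in WT against 21.7, 36.5 and 19.3 in K27M. These 5 stood at density ranks 638 to 707 of the 739 members and none held an H3K4me3 peak in a tumour.

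In tumours, members were marked in a smaller share of cases than all merged regions. No test was made of the differences between classes of region. Of the 739 members 559 (75.6%) held an island in at least 1 of the 11 tumours, against 86.6% of all merged regions. An island in all 11 tumours lay on 96 members (12.99%), against 27.1% of all merged regions. No tumour island lay on 180 members (24.4%), against 13.4% of all regions. Forebrain-only regions were close to the members, with 78.6% in any tumour and 17.1% in all 11. By comparison, regions of all 6 neurosphere lists had 97.4% and 57.3%. Regions of all 3 hindbrain lists and 1 forebrain list lay between, with 89.0% and 17.1%. Regions of 2 hindbrain lists and no forebrain list had 78.2% in any tumour and 10.8% in all 11, so low shares were not particular to the members. An island in all 3 WT hindbrain lists and in no tumour was found at 99 members (13.4%), against 5.76% of all regions.

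Each single tumour gave the same order between members and all regions. Members were called in 52.2%, 50.7%, 58.7%, 35.1%, 27.6% and 34.5% of cases in BT-1 to BT-6 and in 45.9%, 29.4%, 44.4%, 60.8% and 26.5% in BT-7 to BT-11. All merged regions ranged from 41.7% to 76.6% and were above the members in every tumour. The genotypes overlapped. K27M tumours averaged 43.1% ± 12.4 (SD, n = 6) and WT tumours 41.4% ± 13.9 (SD, n = 5). The lowest shares, in BT-5 and BT-11, were in the lists with fewest island reads, 2346983 and 1878972, and the part of depth in these shares was not tested.

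**Figure D3:**
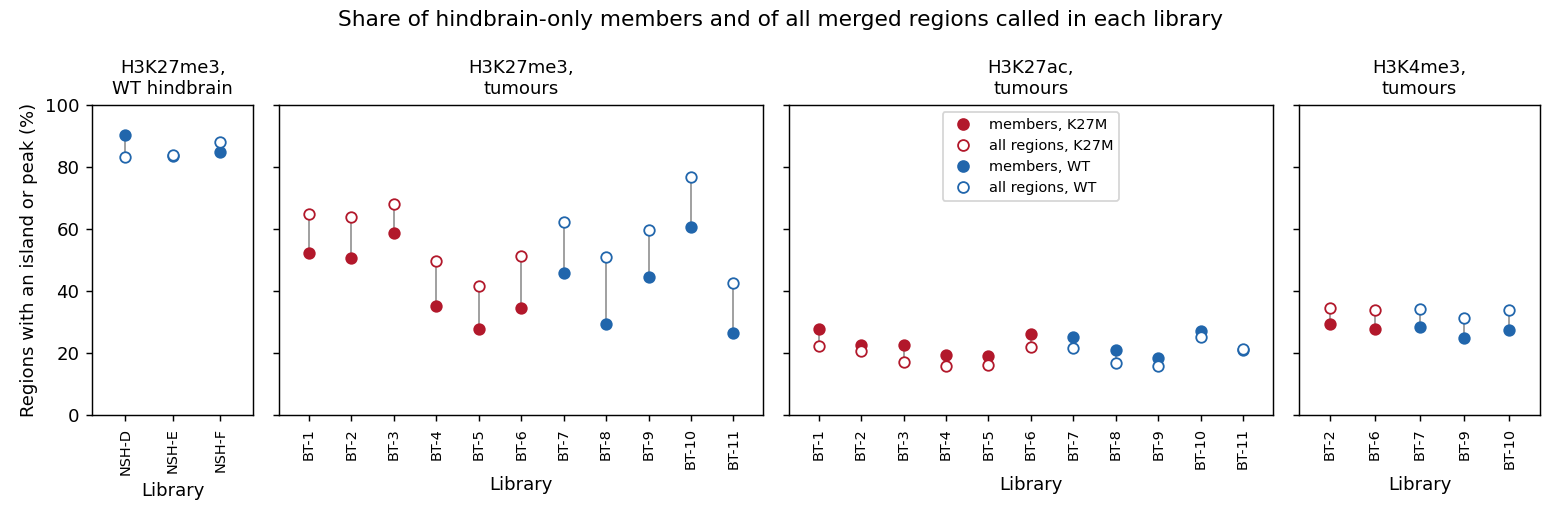
Percent of the 739 members (filled points) and of all 9269 merged regions (open points) with an H3K27me3 island, H3K27ac peak or H3K4me3 peak in each library, for K27M (red) and WT (blue). Members lie below all regions for H3K27me3 and H3K4me3 in every tumour, and above them for H3K27ac in every tumour except BT-11.

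Members took a larger share of island reads in K27M than in WT tumours, and so did the merged regions as a whole. The members' share of autosomal island reads was 1.31%, 1.10%, 1.06%, 1.39%, 1.60% and 1.41% in BT-1 to BT-6 and 0.949%, 0.691%, 0.868%, 0.901% and 1.02% in BT-7 to BT-11. These groups did not overlap, also among females alone and among males alone. Without the 2 densest members the groups overlapped, at 0.884% to 1.22% in K27M and 0.588% to 0.886% in WT. All 9269 regions held 32.5% to 59.8% of island reads in K27M tumours and 25.7% to 40.1% in WT tumours. As a share of the reads in those regions, members were at 2.68% to 3.39% in K27M and 2.50% to 3.51% in WT, with groups that overlapped.

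Tumour libraries played no part in choosing the members, so reads at members could be tested between genotypes. The test took the 2514 regions with an island in all 11 tumours, 96 of them members, so it leaves out the 643 members that any tumour lacked. With p-values from the edgeR quasi-likelihood fit, adjusted by Benjamini-Hochberg over the 2514 regions, 10 of the 96 members were higher in K27M tumours and 2 lower. Of all regions 8.63% were higher and 4.26% lower. The median log2 fold was 0.00 in members and -0.06 over all regions, so the members as a group stood near the rest. Without composition factors 6 members were higher and 42 lower, against 131 and 1300 of the 2514 regions, and the median over all regions was -0.56.

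The 2 densest neurosphere domains were among those that rose. The chr19 domain, chr19:59509201-59551800, ranged over K27M tumours from 3336 to 4411 CPM with a median of 4095, and stood at 1678, 1420, 1260, 1612 and 1412 CPM in BT-7 to BT-11. Every K27M tumour was above every WT tumour, a log2 fold of 1.42 (edgeR adjusted p = 0.000109, SE 0.13). The chr12 domain, chr12:50470201-50519200, ranged from 3643 to 5859 CPM in K27M with a median of 4949, and stood at 1996, 2204, 2140, 2521 and 1596 CPM in BT-7 to BT-11. Its groups did not overlap either, a log2 fold of 1.22 (edgeR adjusted p = 0.000514, SE 0.17). Both domains carried H3K4me3 in all 3 WT tumours, the chr12 domain also in both K27M tumours and the chr19 domain in BT-2 but not BT-6. H3K27ac was absent from the chr12 domain in all 11 tumours and present at the chr19 domain in 3 WT tumours, BT-7, BT-8 and BT-11.

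A group of 3 neighbouring members on chromosome 10 rose as well. The widest of them, chr10:42281201-42315400, ranged from 2250 to 4125 CPM in K27M with a median of 3355 and 1508, 1614, 1572, 857.9 and 1602 CPM in BT-7 to BT-11, with no overlap and a log2 fold of 1.20 (edgeR adjusted p = 0.00243, SE 0.21). The smaller chr10:42331201-42336000 and chr10:42347801-42357000 had log2 folds of 1.56 and 1.28, each with groups that overlapped. The 3 are not independent, since in BT-2, BT-4, BT-5 and BT-6 a single island of 82.0 to 96.8 kb covered all of them. The WT islands that touched the widest were 34.8 to 48.4 kb long. Reads of an island that reaches past a member were shared by length, so a value here is that of the whole island spread evenly.

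The largest log2 fold among members, 1.74 (edgeR adjusted p = 0.00659, SE 0.37), was at chr2:38232001-38242000. K27M tumours ranged from 180.7 to 1066 CPM with a median of 497.6, and WT tumours stood at 225.9, 151.6, 140.3, 199.8 and 191.9 CPM. BT-5 alone among the K27M tumours lay within the WT range. This member begins 0.800 kb after a region called in all 6 neurosphere lists, and the tumour islands that touch it were 17.8 to 118.8 kb long in K27M and 4.00 to 23.0 kb in WT. Its value therefore includes reads from outside the member.

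The other members that rose were short. At chr11:102851001-102854800 K27M tumours had a median of 66.4 CPM and WT tumours 51.5, 42.5, 19.3, 22.2 and 26.9, with no overlap and a log2 fold of 1.15 (edgeR adjusted p = 0.00891, SE 0.25). This call was kept without any single tumour and lost without composition factors (log2 fold 0.65, edgeR adjusted p = 0.0611) and with whole islands counted (edgeR adjusted p = 0.0716). Smaller rises of 0.75, 0.72 and 0.71 on the log2 scale were seen at chr19:4711401-4715400, chr17:46592601-46596200 and chr2:156439601-156444000 (edgeR adjusted p = 0.0350, 0.0387 and 0.0288). These 3 calls depended on the settings and on single tumours. Without composition factors their log2 folds were 0.25, 0.23 and 0.24 (edgeR adjusted p = 0.390, 0.356 and 0.320). With sex as a covariate they were not called either (edgeR adjusted p = 0.0747, 0.116 and 0.0881). The chr19 region was called in 3, the chr17 region in 4 and the chr2 region in 7 of the 11 fits that each left out 1 tumour, with adjusted p up to 0.0722, 0.0764 and 0.0681. The omissions that ended the call were BT-1, BT-4 to BT-7 and BT-9 to BT-11 for the chr19 region, BT-1 to BT-4, BT-6, BT-8 and BT-10 for the chr17 region, and BT-1, BT-4, BT-7 and BT-8 for the chr2 region. All 4 of these short members held H3K27ac in at least 5 tumours, and H3K4me3 in at least 4.

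The 2 members that fell had small folds and groups that did not overlap, narrowly so at the first. The region chr10:13191001-13196800 ranged from 65.5 to 96.3 CPM in K27M and stood at 97.2, 146.4, 125.3, 119.5 and 116.1 CPM in BT-7 to BT-11, a log2 fold of -0.63 (edgeR adjusted p = 0.0157, SE 0.15). The region chr1:160889601-160894400 ranged from 62.2 to 87.2 CPM and stood at 100.8, 104.7, 113.5, 106.6 and 116.1 CPM, a log2 fold of -0.53 (edgeR adjusted p = 0.0153, SE 0.13). Neither held H3K27ac in any tumour.

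All 12 called members kept their direction in every one of the 17 alternative fits. With sex as a covariate 9 of the 12 were still called, and among female tumours alone, 2 K27M against 4 WT, none was, with edgeR adjusted p from 0.0794 to 0.376. The female fit called 0 of its 2676 regions, so the loss is not particular to these members. K27M tumours were mostly male and WT tumours mostly female, so sex and genotype are separated only in part. With whole islands counted in place of the part inside the member, 8 of the 12 were called and neither of the 2 that fell (edgeR adjusted p = 0.0667 and 0.120).

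Other strong neurosphere members did not pass the test in tumours. The chr2:115874401-115910200 region ranged from 462.2 to 826.6 CPM in K27M and from 109.1 to 595.4 CPM in WT (log2 fold 1.06 ± 0.37 SE, edgeR adjusted p = 0.0753). Its neighbour chr2:115673801-115696400 ranged from 309.8 to 482.6 and from 166.9 to 567.4 CPM (log2 fold 0.27 ± 0.27 SE, edgeR adjusted p = 0.540). At chr14:118622001-118640400 the log2 fold was 0.62 (edgeR adjusted p = 0.0642, SE 0.21).

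**Figure D4:**
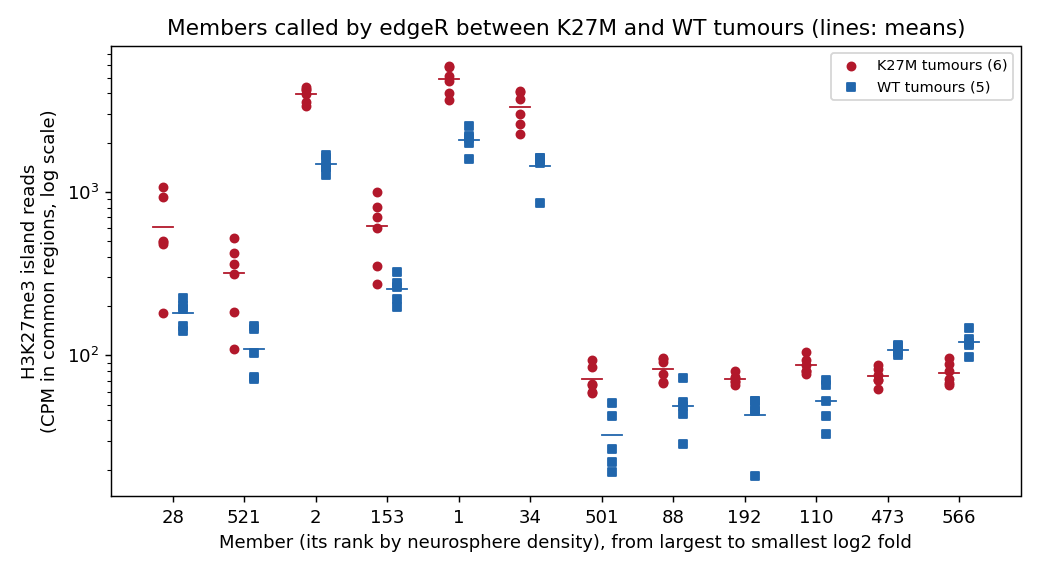
H3K27me3 island reads in CPM of the regions common to all 11 tumours (log scale) at the 12 members called by edgeR, with 1 point per tumour and lines at the means. Members are labelled by their neurosphere density rank, and ranks 1, 2 and 34 combine high counts with groups that do not overlap.

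Counted as calls, present or absent, no member separated the tumour genotypes beyond the adjusted threshold. The test covered 1879 regions, 152 of them members, where the margins allowed an unadjusted p below 0.05, and Fisher's exact test with Benjamini-Hochberg adjustment called 0 regions (0%), with a smallest adjusted p of 0.239. At an unadjusted p under 0.05, 8 of the 152 members were marked more often in K27M tumours, and 3.35% of all 1879 regions were. In WT tumours 4 members were marked more often, and 2.98% of all 1879 regions were. An island in all 6 K27M tumours and no WT tumour lay on 2 members, chr4:66065801-66069000 and chr1:43010601-43015000 (Fisher's exact p = 0.00216 each), which were named after their values were seen. No member showed the reverse. Both held H3K4me3 in all 5 tumours profiled, and H3K27ac lay on the chr1 region in all 11 tumours and on the chr4 region in 3 K27M and 2 WT tumours. Their Fisher's exact p is the smallest that 6 against 5 tumours can give, and it was 0.239 after adjustment. The 0 adjusted calls therefore do not decide whether single members differ. The balance depended on list length. With the 10716 islands of highest reads per kb in every tumour, Fisher's exact test covered 1571 regions, 104 of them members. At an unadjusted p under 0.05, 20 of these members were more often marked in K27M and 1 in WT. Of all 1571 regions 177 were more often marked in K27M and 49 in WT, and the smallest adjusted p was 0.0523. With the full lists, single tumours moved the counts too, and the number of regions tested changed. More often marked in K27M were 13 of 229 members without BT-9, against 105 of 2714 regions. Without BT-10 they were 15 of 211, against 147 of 2514. More often marked in WT were 12 of 214 members without BT-11, against 197 of 2582 regions. Without BT-8 they were 10 of 214, and the count over all 2582 regions rose as well. These shifts are therefore not particular to the members.

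H3K4me3 lay on a smaller share of members than of all regions and H3K27ac on a slightly larger share, with no test of either difference. An H3K4me3 peak of at least 1 of the 5 tumours lay on 238 members (32.2%), against 38.5% of all regions, and on 171 members in all 5 (23.1%, against 28.6% of all regions). An H3K27ac peak of at least 1 of the 11 tumours lay on 303 members (41.0%), against 37.2% of all regions, and on 71 members in all 11 (9.61%, against 7.27% of all regions). Other classes of region spanned these values. H3K27ac in any tumour was at 44.8% in forebrain-only regions, 47.7% with 3 hindbrain lists and 1 forebrain list, and 29.1% with 2 hindbrain lists and none in forebrain. H3K4me3 in any tumour was at 37.5%, 42.5% and 25% in the same classes. In single tumours H3K4me3 lay on 29.5% and 27.6% of members in the K27M tumours BT-2 and BT-6, and on 28.3%, 24.9% and 27.3% in the WT tumours BT-7, BT-9 and BT-10. The 2 K27M and 3 WT tumours overlapped, and an exact permutation test of 2 against 3 cannot give a p under 0.1, so none was run. H3K27ac lay on 18.9% to 27.9% of members in K27M and 18.3% to 27.1% in WT tumours.

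Both shares were higher in the densest quartile of members than in the least dense. All regions were not divided by density, so it is not known whether this holds for members alone. The highest quartile was also the widest, with a median width of 6.80 kb against 5.80 kb in the lowest. In the lowest quartile of density H3K4me3 lay on 18.9% and H3K27ac on 29.7% of members, and in the highest quartile on 43.8% and 53.5%. The middle quartiles had 32.4% and 33.7% for H3K4me3 and 42.7% and 38.0% for H3K27ac. Width did not order the H3K4me3 share as it did over all regions. Members under 3 kb had H3K4me3 in 38.9% of cases and those between 8 and 15 kb in 27.9%, while over all regions the shares were 19.5% and 52.9%. For H3K27ac the same bands of members had 41.7% and 43.5%, and those of all regions 21.0% and 51.5%.

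Both marks together were found at 186 members, H3K4me3 alone at 52, H3K27ac alone at 117 and neither at 384. Neither mark was found at 52.0% of members and 51.3% of all regions, and H3K27ac alone at 15.8% and 10.2%. Tumour H3K27me3 differed between these classes in the members as it did over all regions. An island in all 11 tumours lay on 27 of the 52 members with H3K4me3 alone (51.9%), on 49 of the 186 with both marks (26.3%), on 1 of the 117 with H3K27ac alone (0.855%) and on 19 of the 384 with neither (4.95%). Over all regions these shares were 68.1%, 46.9%, 4.13% and 12.1%. Members were thus below all regions in each class. Both H3K27me3 and H3K4me3 were called at 97 members (13.1%) in all 5 tumours with both lists, against 20.9% of all regions. The marks were mapped in separate reactions on bulk tissue, so overlap within a region does not show that they share a cell or an allele.

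**Figure D5:**
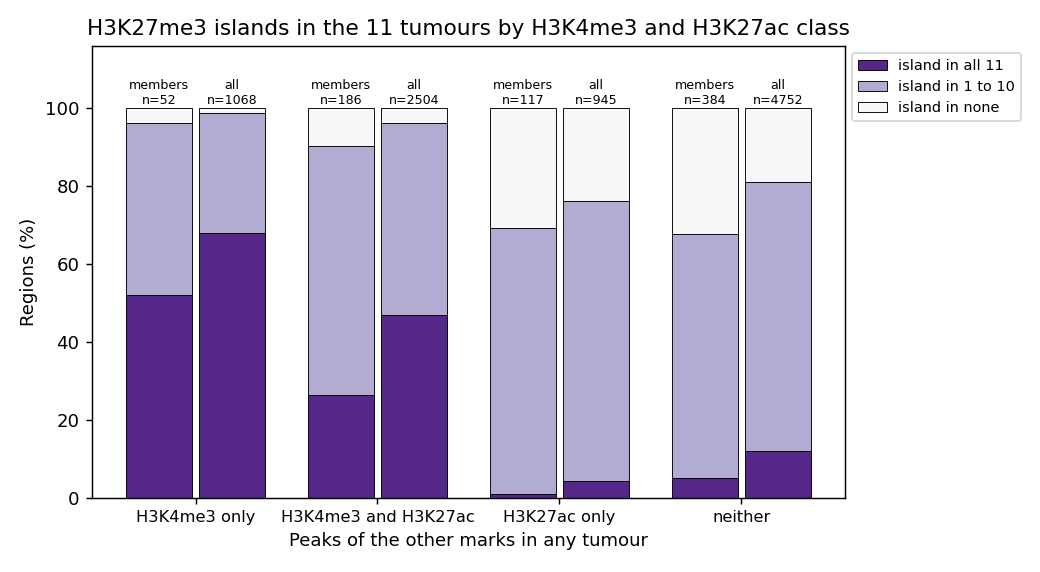
Percent of regions with an H3K27me3 island in all 11 tumours, in 1 to 10 or in none, by the H3K4me3 and H3K27ac peaks found in any tumour, for members (left bars) and all merged regions (right bars), with the number of regions above each bar. Islands in all 11 tumours reach 51.9% of members with H3K4me3 alone and 0.855% of those with H3K27ac alone.

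At no member did H3K27ac calls pass the adjusted threshold between the tumour genotypes. The test covered 824 regions, 62 of them members, chosen by the same limit. Fisher's exact test with Benjamini-Hochberg adjustment called 0 regions (0%), and the smallest adjusted p of a member was 0.390. At an unadjusted p under 0.05, 3 of the 62 members were acetylated more often in K27M tumours, and 1.94% of all 824 regions were. In WT tumours 0 members were acetylated more often, and 1.94% of all 824 regions were. The 3 were chr2:115673801-115696400, chr7:136954001-136958600 and chr9:120734201-120744600, named after their values were seen. At the chr2 region, the third densest member, a peak was called in all 6 K27M tumours and in 1 of 5 WT tumours, BT-7 (Fisher's exact p = 0.0152). Its -log10 q in the authors' peak lists was 20.6, 22.6, 23.5, 10.3, 7.03 and 23.5 in BT-1 to BT-6 and 6.76 in BT-7. The chr7 and chr9 regions had peaks in 5 K27M and no WT tumours. These counts were small and moved with single tumours. In favour of K27M were 8 of 52 members without BT-4, against 29 of 695 regions. Without BT-5 they were 8 of 53, against 32 of 686. Without BT-8 they were 6 of 89, against 28 of 1130, and without BT-10 5 of 83, against 33 of 1126. In favour of WT were 4 of 49 members without BT-1, against 39 of 681 regions. Without BT-8 they were 3 of 89, against 48 of 1130, and without BT-11 3 of 85, against 39 of 1144.

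The members with most H3K27ac calls and highest density were chr2:115874401-115910200, chr1:165236201-165248800, chr1:154885801-154912600, chr18:15218001-15230600 and chr5:13393601-13411800, each with a peak in all 11 tumours. They differed in tumour H3K27me3. The chr2 region held an island in all 11 tumours, the chr1 region at 165236201 and the chr18 region in 6 K27M and 4 WT tumours each, and the chr5 region in 4 and 3. The chr1 region at 154885801 held an island in 2 K27M and no WT tumours and H3K4me3 in none, although all 3 WT hindbrain lists marked it. The others carried H3K4me3 in all 5 tumours.

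The densest members with neither H3K4me3 nor H3K27ac were chr2:106414001-106431600, chr1:157604201-157606200, chr6:35430601-35435400, chr1:13915401-13926000 and chr11:105616201-105625000. At the first, densities were 13.5, 17.7 and 12.03 in NSH-A to NSH-C and 6.39, 4.23 and 3.99 in NSH-D to NSH-F. At the last they were 13.99, 11.7 and 12.1 against 4.70, 3.45 and 3.11. All but the chr6 region were marked in all 3 WT hindbrain lists, the chr6 region in 2. Tumours seldom marked these members. No tumour held an island at the chr6 and chr11 regions, and 1 WT tumour did at chr2:106414001 and at chr1:13915401. The chr1:157604201 region was marked in 3 K27M and 2 WT tumours.

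Many members lay close to another marked region. Their nearest merged region of any class was at a median of 3.40 kb and within 1 kb at 212 members (28.7%), against 10.8 kb and 18.2% over all regions. Another member lay within 1 kb of 85 members and within 5 kb of 129. A forebrain island lay within 1 kb of 26 members, within 5 kb of 118 and within 10 kb of 172, while 329 members were more than 100 kb from any, and the median distance was 76.2 kb. Islands within 1 kb and 5 kb of each other, when merged, left 635 and 541 hindbrain-only regions. Members were found on all 19 autosomes, as 6.03% of the merged regions on chromosome 7 at the lowest and 11.4% on chromosome 1 at the highest.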

How the data were processed

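ChIP-seq lists of 36 of the 59 samples were used, 20 for H3K27me3, 11 for H3K27ac and 5 for H3K4me3. The other 23 samples are inputs and were not used here. Per the submitters' processing notes, the tools included SICER 1.1, MACS2, bedtools 2.25.0, BWA 0.7.12, R 2.14.0, SAMtools and Picard, and the build was mm9; the role of each is not given. The H3K27me3 lists deposited by the authors give islands with the count of reads in each. The lists' names give 200 bp as window and 600 bp as gap. The H3K27ac and H3K4me3 lists deposited by the authors give for each peak a score, a fold enrichment over background and the -log10 p and -log10 q, with 1 list per sample and no lower -log10 q than 2. Drosophila chromatin was added as a spike-in per the labels' protocols, and no scale factor was used here, so values are relative within libraries.

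Islands of the 6 K27M neurosphere lists were merged wherever they touched, autosomes only, and a list marked a region on sharing 1 base. Reads of an island reaching past a region were shared by length. Regions with an island in every library compared were tested with edgeR 4.0.16 (R 4.3.3, TMM factors, quasi-likelihood, threshold 0.05), and tumour calls with Fisher's exact test, two-sided, both with Benjamini-Hochberg adjustment. Python 3.11.15, pandas 2.3.3, SciPy 1.17.1 and matplotlib 3.10.9 were used, and both tests were tested on simulated data. DESeq2 1.42.0 and other settings served as alternatives. Intervals for single counts are not given, and precision is limited by the number of reads per island and of libraries.

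The members and the lists described were chosen with earlier results of these data known. Regions were named by rule: the 12 densest members, the 5 widest, the 5 densest without a WT hindbrain island, the 5 densest with neither mark, the 5 with most H3K27ac calls and up to 5 per direction in each test. All 12 members called in tumours are also named. Hindbrain K27M and WT libraries share experiment numbers in the labels. Deviations from the group means correlated at 0.07, 0.05 and 0.07 over the 3767 regions in the 3 same-numbered pairs, and each K27M library correlated best with its own number. No gene names, gene lists or sequences are given, since no annotation or genome of the mm9 build was used here.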

Additional observations from a re-analysis of the deposited data

Results flagged for a closer look

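At 2 members 1 WT tumour lay far below the other 4. At chr10:42281201-42315400 BT-10 had 857.875 CPM of H3K27me3 island reads, against 1508 CPM in the nearest other WT tumour, a gap of 0.860 of the group's range. At chr17:46592601-46596200 BT-11 had 18.3339 CPM, against 45.9 CPM in the nearest other, a gap of 0.797 of the range. BT-10 and BT-11 were the tumours with the most and the fewest island reads, and the part of depth in these values was not tested. Of the 30 groups of values looked at, chance alone would mark about 1 in 20. The chr10 call was kept without any single tumour, and the chr17 call was lost in 7 of the 11 omissions.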

How the results depend on the processing

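The number of hindbrain-only regions was 407 with equal numbers of islands by reads per kb, 461 by reads and 376 with islands of at least 1.5 times the lowest decile of reads per kb, where forebrain-only regions numbered 148. With single libraries or a numbered set left out, hindbrain-only regions ranged from 800 to 1267 and forebrain-only regions from 318 to 496. In hindbrain cells, members higher and lower in K27M were 16 and 365 without composition factors, and 179 were lower when all reads of touching islands were counted. Over all 3767 regions these counts were 287 and 2528, and 1006. Leaving out 1 library gave 38 to 70 members higher and 44 to 102 lower, against 651 to 948 and 582 to 923 of all regions tested. With the experiment number as a replicate block, 60 members were higher and 94 lower, against 781 and 830 of all 3767 regions. The named members kept their direction. These hindbrain member counts are description only, since the same K27M libraries chose the members. In tumours, members higher and lower were 6 and 42 without composition factors, 18 and 5 with DESeq2, and 0 and 0 in female tumours only. Over all regions tested these counts were 131 and 1300, 306 and 202, and 0 and 0. No member (0) was lower when whole islands were counted, against 121 of all regions. Leaving out 1 tumour gave 7 to 12 members higher and 2 to 3 lower, against 174 to 220 and 63 to 103 of all regions tested. In these settings no named region changed direction. The cause of these shifts was not tested. The female comparison has fewer samples. Whole-island counts, the female comparison and WT calls without NSH-F were chosen after seeing the data. Fisher's tests gave 0 adjusted calls in every setting tried. With 6 against 5 tumours, regions that separated the genotypes completely were not called either, so this does not decide for single members. The lists give no total depth, so its part in calls of weak members was not tested.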
